A study of Mus musculus with 10 samples.

Results

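Hepatocytes divide the handling of nitrogen and glucose by their position between the portal tract and the central vein, and 36 genes of this division of labour are described here in laser-captured portal tracts. The genes were given as a list, 8 of them pericentral (expressed mainly around the central vein) and 28 mainly periportal (around the portal tract). Each was read from the probe set that carries exactly 1 gene symbol, or from the one with the highest mean over the 10 arrays where there were several. Of the 36 genes 35 were measured, 8 pericentral and 27 mainly periportal, among 22180 genes in all, and Gls2 was not analysed here.

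The 2 groups were 5 samples from Jag1+/-Rfng+/- mice and 5 from mice labelled control, all at 1 week of age. Notch receptors are activated by Jag1, a ligand on neighbouring cells, and their response to ligands is tuned by the sugar-adding enzyme Radical fringe, the product of Rfng. The strain is given as C57Bl/6J for the controls only, and the labels do not describe the mutant alleles further. Each sample was RNA from 12 to 20 portal tracts cut from frozen liver sections, measured on 1 single-colour array as log2 values. Whether the samples of a group came from different mice is not stated, so p-values rest on a spread between samples that may be technical.

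Periportal hepatocytes receive blood rich in oxygen and nutrients. They burn amino acids, make urea from the ammonia that this releases, and make glucose by gluconeogenesis. Pericentral hepatocytes take up the ammonia that escapes the urea cycle and fix it in glutamine, under the control of Wnt signals from the central vein. This zonation is still maturing in the neonatal mouse liver. A capture of portal tracts can hold hepatocytes of the limiting plate around the tract and, where the cut runs wider, hepatocytes from further along the lobule.

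The upstream 250 bases of 4 of the genes are shown because the results turn on them: Glul and Lect2 are pericentral genes that varied widely between arrays, and Hal and Gldc are periportal genes that read lower in Jag1+/-Rfng+/-. Each ends at the base before the start site of the RefSeq promoter table (GRCm38.p6), which for Lect2 lies inside the annotated gene, so that the last bases of its window are within the gene. Each is written 5′ to 3′ on the gene's strand. Capitals mark the 6 letters CTTTGA on either strand, a core of the sites bound by the TCF/LEF factors of the Wnt pathway.
Glul, chr1:153899679-153899928, plus strand: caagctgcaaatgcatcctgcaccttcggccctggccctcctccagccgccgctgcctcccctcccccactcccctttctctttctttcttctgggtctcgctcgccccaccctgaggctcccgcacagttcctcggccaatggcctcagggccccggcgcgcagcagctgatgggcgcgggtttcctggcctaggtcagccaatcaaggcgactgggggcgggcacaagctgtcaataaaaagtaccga
Lect2, chr13:56548539-56548788, minus strand: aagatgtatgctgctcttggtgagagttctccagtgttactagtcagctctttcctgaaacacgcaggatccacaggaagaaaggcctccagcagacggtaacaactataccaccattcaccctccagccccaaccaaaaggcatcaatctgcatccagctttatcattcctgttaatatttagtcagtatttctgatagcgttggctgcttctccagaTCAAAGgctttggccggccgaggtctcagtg
Hal, chr10:93488518-93488767, plus strand: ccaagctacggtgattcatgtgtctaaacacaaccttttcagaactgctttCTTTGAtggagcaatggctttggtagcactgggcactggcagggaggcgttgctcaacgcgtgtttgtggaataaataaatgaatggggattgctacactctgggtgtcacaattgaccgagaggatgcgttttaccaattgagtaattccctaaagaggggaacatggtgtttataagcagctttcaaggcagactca
Gldc, chr19:30175442-30175691, minus strand: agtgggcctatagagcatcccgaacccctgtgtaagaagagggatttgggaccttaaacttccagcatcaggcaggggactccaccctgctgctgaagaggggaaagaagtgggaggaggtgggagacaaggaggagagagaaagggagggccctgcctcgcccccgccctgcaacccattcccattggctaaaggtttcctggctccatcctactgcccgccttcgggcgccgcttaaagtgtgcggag
The letters stood once each in the Lect2 and Hal windows and were not found in those of Glul and Gldc. Of the 35 measured genes 26 had an entry in the promoter table, and 8 of these 26 held the letters (30.8%), against 13.8% of all 32851 promoters in it. They were found for 2 of 4 pericentral genes, Slc1a2 and Lect2, and for 6 of 22 mainly periportal ones, Nags, G6pc, Hal, Hsd17b13, Aldh1b1 and Agxt. The start used for Slc1a2 also lies inside its annotated gene. A match describes these windows and does not show a binding site.

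The capture held hepatocyte RNA on every array. Alb, the albumin gene, read 12.08 to 12.20 on the Jag1+/-Rfng+/- arrays and 12.13 to 12.27 on the control arrays, close to the highest value of the table, 12.47. The mean of 9 measured hepatocyte genes, relative to the mean of the controls, was -0.23 on Jag1+/-Rfng+/- replicate 5 and -0.05 to -0.01 on the other 4 Jag1+/-Rfng+/- arrays, against -0.06 to 0.04 in controls. Markers of the tract itself were less even: the mean of 8 biliary genes was -1.01 to -0.36 in Jag1+/-Rfng+/- and -0.35 to 0.56 in controls, and that of 10 portal fibroblast genes was -1.65 to -0.06 in Jag1+/-Rfng+/- and -0.69 to 0.44 in controls. Jag1+/-Rfng+/- replicate 5 correlated least with the rest (Pearson r across probe sets of 0.956 to 0.963). The mean of 4 erythroid genes was 2.82 there, against -0.36 to 0.25 on the other Jag1+/-Rfng+/- arrays and -0.88 to 0.67 on the control arrays. Its sample name carries the suffix excl, of unstated meaning. The targeted genes read lower in Jag1+/-Rfng+/-, Jag1 at 3.68 to 5.06 against 4.59 to 6.59 in controls and Rfng at 4.19 to 4.57 against 4.61 to 5.13 in controls (limma adjusted p = 0.559 and 0.416). In bulk samples of this kind, fewer cells of a type and less RNA per cell cannot be told apart.

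No member passed an adjusted p of 0.05 in the comparison of Jag1+/-Rfng+/- with control tracts. With limma and Benjamini-Hochberg adjustment over all 22180 genes, 0 of 35 members passed, against 2 genes in all (0.00902%), and the lowest adjusted p of a member was 0.608. At an unadjusted p under 0.05, 4 of 35 members differed, 3 lower (Gldc, Hal and Aldh1b1) and 1 higher (Pigr), where 6.76% of all genes did, 3.79% lower and 2.98% higher. The median difference, Jag1+/-Rfng+/- minus control, was -0.07 over the 8 pericentral genes and 0.04 over the 27 mainly periportal ones on the log2 scale, and -0.01 over all genes. Of the 35 members 19 lay higher and 16 lower, against 10766 higher and 11414 lower of all 22180 genes.

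**Figure D1:**
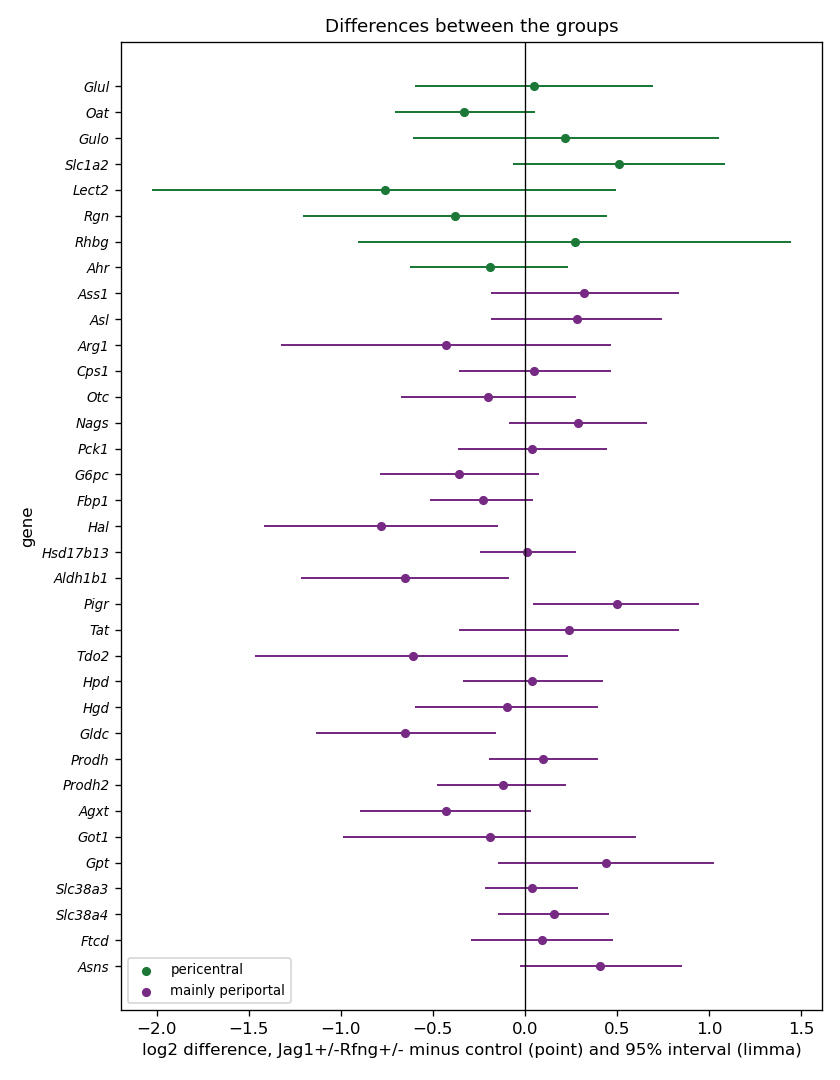
Log2 difference of each of the 35 genes, Jag1+/-Rfng+/- minus control (point), with its 95% interval from limma (line), pericentral genes on top in green and mainly periportal ones in purple. The intervals of Gldc, Hal, Aldh1b1 and Pigr exclude 0 before adjustment, and the 2 widest are those of the pericentral genes Lect2 (-2.02 to 0.49) and Rhbg (-0.90 to 1.44).

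The pericentral genes varied widely between arrays of the same group. The median SD within groups was 0.63 for the 8 pericentral genes and 0.36 for the 27 mainly periportal ones, against 0.22 for all genes and 0.27 for genes above the median level. Their mean, relative to the mean of the controls, was -0.27, 0.15, 0.37, 0.34 and -0.97 on Jag1+/-Rfng+/- replicates 1 to 5 and 0.20, -0.23, -0.98, 0.50 and 0.52 on control replicates 1 to 5. Thus 1 array of each group, Jag1+/-Rfng+/- replicate 5 and control replicate 3, lay far below the other 8. Control replicate 3 was among the 3 lowest arrays for 7 of the 8 genes, all but Oat, and Jag1+/-Rfng+/- replicate 5 for 8 of 8.

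**Figure D2:**
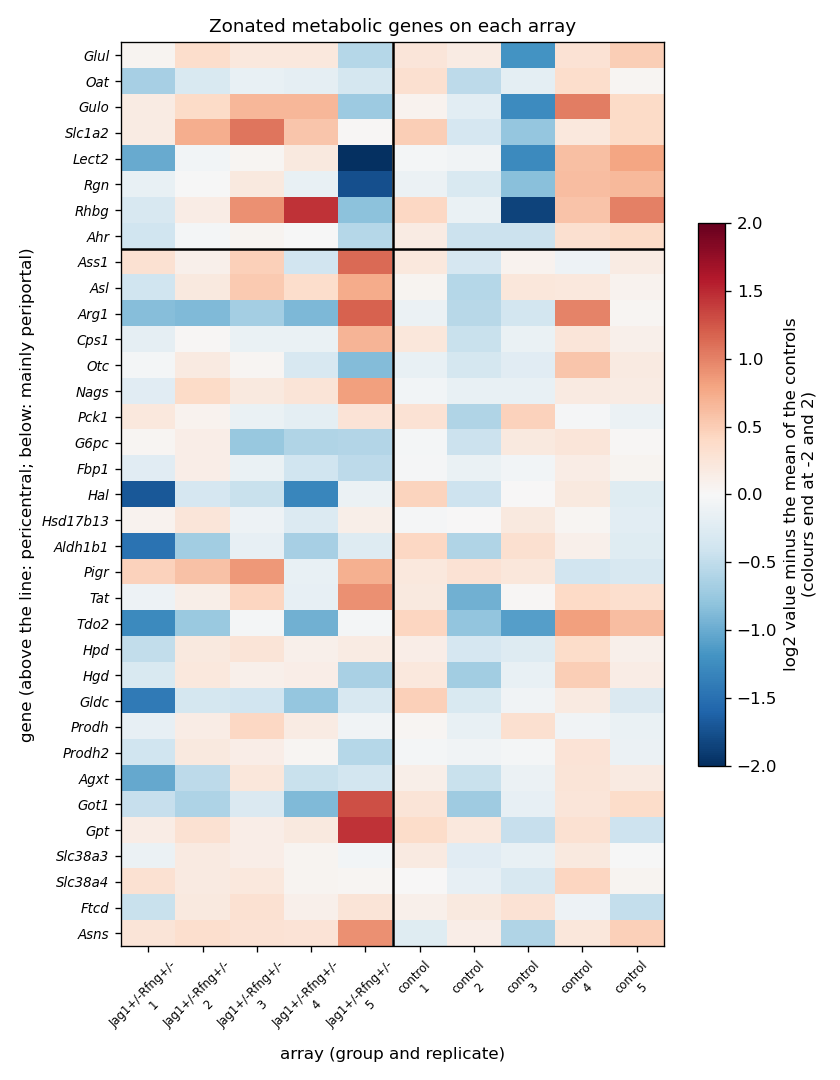
Log2 value of the 35 genes (down) on the 10 arrays (across), relative to each gene's mean over the controls, red above and blue below. Pericentral genes stand above the line. All of them lie below their control mean on control replicate 3, and all but Slc1a2 (4.10 against 4.08) on Jag1+/-Rfng+/- replicate 5. Hal, Aldh1b1 and Gldc are lowest on Jag1+/-Rfng+/- replicate 1.

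Glul encodes glutamine synthetase, the enzyme that fixes ammonia in glutamine and the classical marker of the hepatocytes next to the central vein. It read 10.47, 10.76, 10.62, 10.63 and 9.84 on Jag1+/-Rfng+/- replicates 1 to 5, against 10.66, 10.58, 9.22, 10.70 and 10.91 on control replicates 1 to 5. The groups overlapped, and a single array in each was low. The mean was 10.46 ± 0.36 in Jag1+/-Rfng+/- and 10.41 ± 0.68 in controls (SD, n = 5 each). The difference was 0.05 ± 0.29 log2 (SE; 95% interval -0.59 to 0.69; limma adjusted p = 0.986), and Glul's other probe set gave 0.08. It was -0.25 without control replicate 3, 0.20 without Jag1+/-Rfng+/- replicate 5 and 0.50 within the 3 against 3 arrays that share a number in their sample names, so its sign rests on single arrays.

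Rhbg, an ammonium transporter, and Gulo, the last enzyme of vitamin C synthesis in mice, followed the same arrays. Rhbg read 5.02, 5.49, 6.26, 6.80 and 4.52 in Jag1+/-Rfng+/- and 5.76, 5.21, 3.49, 5.92 and 6.36 in controls. Gulo read 9.18, 9.40, 9.68, 9.68 and 8.30 in Jag1+/-Rfng+/- and 9.10, 8.81, 7.76, 10.04 and 9.40 in controls. Both were lowest on control replicate 3 and next lowest on Jag1+/-Rfng+/- replicate 5. Rhbg averaged 5.62 ± 0.92 in Jag1+/-Rfng+/- and 5.35 ± 1.12 in controls, and Gulo averaged 9.25 ± 0.57 in Jag1+/-Rfng+/- and 9.02 ± 0.84 in controls (SD, n = 5 each). Between the groups Rhbg differed by 0.27 ± 0.54 and Gulo by 0.22 ± 0.38 (SE; limma adjusted p = 0.947 and 0.932). Both signs turned without control replicate 3, to -0.19 for Rhbg and -0.09 for Gulo, and without Jag1+/-Rfng+/- replicate 5 the differences were 0.54 and 0.46.

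Lect2, a secreted hepatocyte protein, and Rgn, the calcium-binding enzyme regucalcin, were lowest on Jag1+/-Rfng+/- replicate 5. Lect2 read 8.12, 9.07, 9.16, 9.32 and 6.13 in Jag1+/-Rfng+/- and 9.09, 9.05, 7.85, 9.72 and 9.92 in controls. It averaged 8.36 ± 1.33 in Jag1+/-Rfng+/- and 9.12 ± 0.81 in controls (SD, n = 5 each). Its range over the 10 arrays was 3.80 log2, and the difference between groups was -0.76 ± 0.58 (SE; limma adjusted p = 0.846), or -0.21 without Jag1+/-Rfng+/- replicate 5. Rgn averaged 9.06 ± 0.79 in Jag1+/-Rfng+/- and 9.44 ± 0.63 in controls (SD, n = 5 each), and its difference of -0.38 was -0.03 without that replicate. Within the 3 against 3 arrays, which also leave out that replicate, both signs turned, to 0.31 for Lect2 and 0.19 for Rgn. Within all 7 arrays of the shared sample-name number the differences were -0.45 for Lect2 and -0.26 for Rgn. Slc1a2, a glutamate transporter, averaged 4.59 ± 0.43 in Jag1+/-Rfng+/- and 4.08 ± 0.54 in controls (SD, n = 5 each; difference 0.51 ± 0.26, SE; limma adjusted p = 0.757), with control replicate 3 lowest at 3.31. Its difference ran from 0.32 without control replicate 3 to 1.08 within the 3 against 3 arrays. Over the 21 alternatives described below it kept its sign, and 6 gave an unadjusted limma p under 0.05 (lowest adjusted p = 0.591).

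Oat and Ahr were the pericentral genes with the smallest range. Oat, ornithine aminotransferase, which turns ornithine into glutamate, read 6.25, 6.61, 6.76, 6.74 and 6.57 in Jag1+/-Rfng+/- and 7.23, 6.39, 6.72, 7.27 and 6.96 in controls. Its mean was 6.59 ± 0.20 in Jag1+/-Rfng+/- and 6.91 ± 0.37 in controls (SD, n = 5 each). All 5 Jag1+/-Rfng+/- values lay below 3 of the 5 control values, and the difference was -0.33 ± 0.17 (SE; limma adjusted p = 0.768). Ahr, the receptor of aromatic hydrocarbons, averaged 6.47 ± 0.28 in Jag1+/-Rfng+/- and 6.66 ± 0.40 in controls (SD, n = 5 each).

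**Figure D3:**
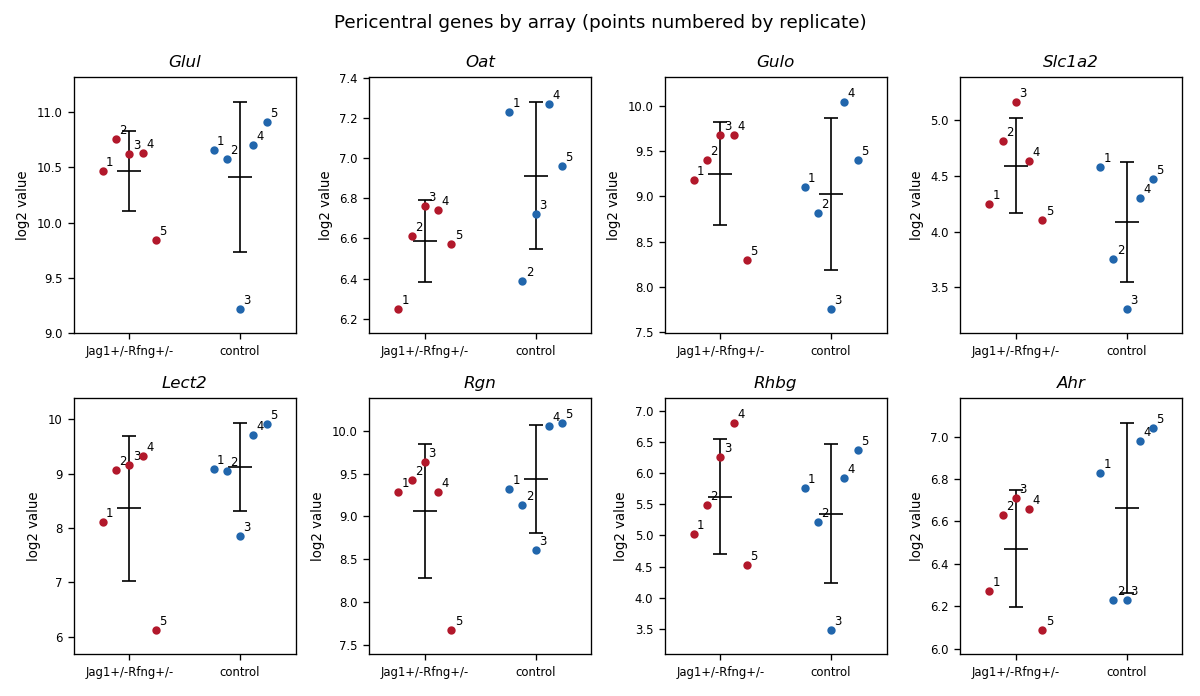
Log2 value of the 8 pericentral genes on each array, Jag1+/-Rfng+/- left in red and control right in blue, numbered by replicate, with mean and SD as a bar (n = 5 each, vertical axes differ). Glul, Gulo, Slc1a2 and Rhbg are lowest on control replicate 3, and Lect2, Rgn and Ahr on Jag1+/-Rfng+/- replicate 5.

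The shared ups and downs were measured for Glul against each of the other 34 members over the 10 arrays. All 7 other pericentral genes had a positive Pearson r (0.25 to 0.87), against 10 of 27 mainly periportal ones (-0.60 to 0.59). Spearman's rho was positive for 7 of 7 pericentral genes (0.60 to 0.88) and 19 of 27 mainly periportal ones (-0.50 to 0.81). Rhbg (r = 0.87, permutation p = 0.0011, Benjamini-Hochberg adjusted p = 0.038 over the 34 relations; Spearman's rho = 0.73, permutation p = 0.020, adjusted p = 0.13) and Gulo (r = 0.87, permutation p = 0.0028, adjusted p = 0.048; rho = 0.67, permutation p = 0.039, adjusted p = 0.15) passed the adjustment for r but not for rho. Without the 2 arrays farthest from the median of Glul, control replicate 3 and Jag1+/-Rfng+/- replicate 5, r was 0.46 for Rhbg and 0.26 for Gulo, so both relations rest on those arrays. Without them r was positive for 7 of 7 pericentral genes (0.24 to 0.83) and also for 20 of 27 mainly periportal ones (-0.56 to 0.65), so the contrast in sign between the zones rests on those 2 arrays too. For Lect2, Rgn and Ahr, which did not pass (adjusted p = 0.15, 0.14 and 0.10 for r, and 0.052 each for rho, permutation tests), r was 0.75, 0.76 and 0.69 over the 10 arrays and 0.83, 0.71 and 0.78 without those 2. Among the 7 arrays that share a sample-name number, r was 0.87 for Rhbg, 0.90 for Gulo, 0.73 for Lect2, 0.72 for Rgn and 0.68 for Ahr. With each group centred on its own mean it was 0.74 to 0.88 for these 5 genes. Control replicate 3 and Jag1+/-Rfng+/- replicate 5 are among the arrays of both calculations. These values therefore do not check the relations apart from those 2 arrays.

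Many, but not all, pericentral genes outside the list were low on the same arrays, most often on control replicate 3. Cyp2e1, a cytochrome P450 of pericentral hepatocytes, read 10.41, 10.73, 10.91, 10.74 and 9.37 in Jag1+/-Rfng+/- and 10.45, 10.59, 9.29, 11.01 and 10.94 in controls. Tbx3, a transcription factor gene and Wnt target of these cells, read 5.18, 5.10, 5.73, 5.48 and 4.70 in Jag1+/-Rfng+/- and 4.45, 5.04, 3.56, 5.86 and 5.54 in controls. Of 12 such genes control replicate 3 held the lowest value for 8 and was among the 3 lowest for 11. Jag1+/-Rfng+/- replicate 5 held the lowest value for 2, was among the 3 lowest for 9 and was the highest for 1. At an unadjusted p under 0.05 (limma), 0 of these 12 differed between the groups. Cyp2e1 and Tbx3 were named after their values were seen.

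**Figure D4:**
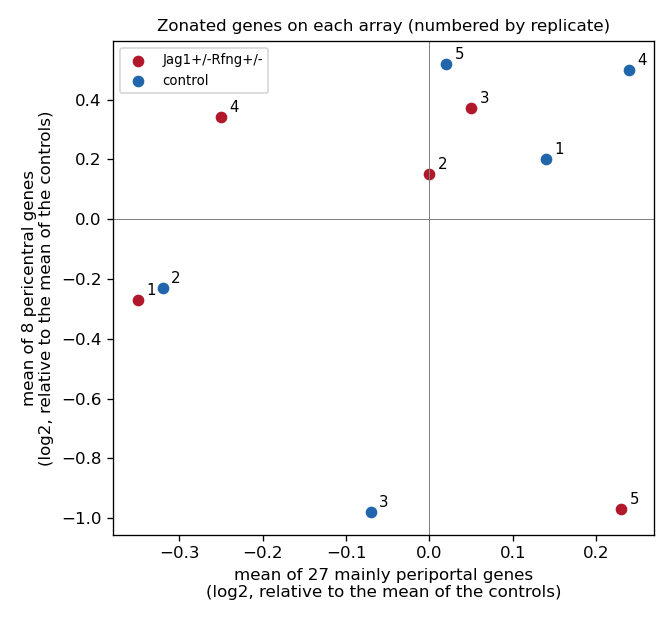
Mean of the 8 pericentral genes (vertical) against the mean of the 27 mainly periportal genes (horizontal) on each array, both log2 relative to the mean of the controls, Jag1+/-Rfng+/- in red and control in blue, numbered by replicate. Jag1+/-Rfng+/- replicate 5 (-0.97) and control replicate 3 (-0.98) lie at the bottom, and Jag1+/-Rfng+/- replicate 1 (-0.35) and control replicate 2 (-0.32) at the left.

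The periportal genes varied less between arrays and along another order. Their mean, relative to the mean of the controls, was -0.35, 0.00, 0.05, -0.25 and 0.23 on Jag1+/-Rfng+/- replicates 1 to 5 and 0.14, -0.32, -0.07, 0.24 and 0.02 on control replicates 1 to 5. Jag1+/-Rfng+/- replicate 1 was the lowest array for 8 of the 27 genes and control replicate 2 for 6, while Jag1+/-Rfng+/- replicate 5 was the highest for 9 and control replicate 4 for 10. The 2 arrays with the lowest pericentral genes were thus not those with the lowest periportal genes.

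The urea cycle genes did not differ between the groups past the threshold, and 4 of the 6 lay higher in Jag1+/-Rfng+/-. Cps1, carbamoyl phosphate synthetase, which starts the cycle in mitochondria, read 9.97, 10.17, 10.01, 10.01 and 10.83 in Jag1+/-Rfng+/- and 10.38, 9.70, 10.02, 10.39 and 10.25 in controls. Its average was 10.20 ± 0.36 in Jag1+/-Rfng+/- and 10.15 ± 0.29 in controls (SD, n = 5 each). Its difference was 0.05 ± 0.19 (SE; limma adjusted p = 0.973). Otc, which joins carbamoyl phosphate to ornithine, averaged 8.33 ± 0.41 in Jag1+/-Rfng+/- and 8.54 ± 0.36 in controls (SD, n = 5 each), and Nags, which makes the activator of Cps1, averaged 5.64 ± 0.38 in Jag1+/-Rfng+/- and 5.35 ± 0.16 in controls. Nags differed by 0.29, and by 0.32 on its other probe set.

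Further along the cycle, Ass1, argininosuccinate synthetase, read 4.04, 3.83, 4.20, 3.34 and 4.86 in Jag1+/-Rfng+/- and 3.94, 3.39, 3.80, 3.63 and 3.89 in controls. The average was 4.05 ± 0.55 in Jag1+/-Rfng+/- and 3.73 ± 0.22 in controls (SD, n = 5 each). These values lie not far above the level under which 95% of 1105 olfactory receptor genes read (3.15), where differences are compressed, and the difference was 0.32 ± 0.23 (SE; limma adjusted p = 0.841). Asl, which splits argininosuccinate into arginine and fumarate, averaged 7.77 ± 0.43 in Jag1+/-Rfng+/- and 7.49 ± 0.33 in controls (SD, n = 5 each).

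Arg1, arginase, which releases urea, varied most among the urea cycle genes. It read 7.42, 7.40, 7.59, 7.37 and 9.46 in Jag1+/-Rfng+/- and 8.16, 7.72, 7.91, 9.27 and 8.32 in controls. Jag1+/-Rfng+/- replicates 1 to 4 lay below all 5 controls and replicate 5 above all of them. Arg1 averaged 7.85 ± 0.91 in Jag1+/-Rfng+/- and 8.28 ± 0.60 in controls (SD, n = 5 each). The difference was -0.43 ± 0.41 (SE; limma adjusted p = 0.873) with all arrays, -0.83 without Jag1+/-Rfng+/- replicate 5 and -0.18 without control replicate 4, the highest control. With the portal fibroblast list as a covariate it was -1.37, and with the hepatocyte list -0.86. The values of -0.83, -1.37 and -0.86 were each at an unadjusted limma p under 0.05, and no adjusted p of Arg1 lay under 0.564. Jag1+/-Rfng+/- replicate 5 was also the highest array for Cps1, Ass1, Asl and Nags, and the lowest for Otc at 7.67. The erythroid list stood at 2.82 there, and its part in these values was not tested.

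No gene of gluconeogenesis passed the threshold, with 1 of 3 higher and 2 lower in Jag1+/-Rfng+/-. Pck1, phosphoenolpyruvate carboxykinase, read 10.23, 10.08, 9.88, 9.82 and 10.29 in Jag1+/-Rfng+/- and 10.30, 9.41, 10.48, 9.99 and 9.90 in controls, with averages of 10.06 ± 0.21 in Jag1+/-Rfng+/- and 10.02 ± 0.41 in controls (SD, n = 5 each). The difference was 0.04 ± 0.18 (SE; limma adjusted p = 0.978). G6pc, the catalytic subunit of glucose 6-phosphatase, which frees glucose for export, read 9.58, 9.68, 8.78, 8.94 and 8.95 in Jag1+/-Rfng+/- and 9.51, 9.11, 9.74, 9.79 and 9.56 in controls. G6pc averaged 9.19 ± 0.41 in Jag1+/-Rfng+/- and 9.54 ± 0.27 in controls (SD, n = 5 each). Its Jag1+/-Rfng+/- replicates 3, 4 and 5 lay below all controls while replicates 1 and 2 lay among them, and the difference was -0.36 ± 0.20 (SE; limma adjusted p = 0.772). Fbp1, fructose 1,6-bisphosphatase, averaged 10.00 ± 0.25 in Jag1+/-Rfng+/- and 10.23 ± 0.11 in controls (SD, n = 5 each; limma adjusted p = 0.771).

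Among the genes of amino acid breakdown, Gldc, the decarboxylase of the glycine cleavage system, had the lowest unadjusted p of all members. It read 5.96, 7.02, 6.98, 6.60 and 7.05 in Jag1+/-Rfng+/- and 7.85, 7.06, 7.30, 7.55 and 7.08 in controls. The groups did not overlap, by a margin of the second decimal between Jag1+/-Rfng+/- replicate 5 and control replicate 2. Gldc averaged 6.72 ± 0.47 in Jag1+/-Rfng+/- and 7.37 ± 0.34 in controls (SD, n = 5 each). The difference was -0.65 ± 0.22 log2 (SE; limma p = 0.0138, adjusted p = 0.608; exact permutation p = 0.00794, two-sided, which is the lowest value possible with 5 arrays in each group). Gldc was 1 of 35 members (2.86%) whose groups did not overlap, against 1.38% of all genes, and 0.766% in this direction.

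Hal, histidase, which opens the breakdown of histidine, read 5.44, 6.80, 6.68, 5.83 and 7.02 in Jag1+/-Rfng+/- and 7.58, 6.72, 7.14, 7.33 and 6.89 in controls. Jag1+/-Rfng+/- replicates 1, 3 and 4 lay below every control, replicate 3 by a small margin, and the other 2 lay among them. Hal averaged 6.35 ± 0.68 in Jag1+/-Rfng+/- and 7.13 ± 0.34 in controls (SD, n = 5 each). The difference was -0.78 ± 0.29 (SE; limma p = 0.0199, adjusted p = 0.619; exact permutation p = 0.0476, two-sided).

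Aldh1b1, a mitochondrial aldehyde dehydrogenase that ductal cells are also known to express, read 4.94, 5.73, 6.26, 5.76 and 6.16 in Jag1+/-Rfng+/- and 6.84, 5.82, 6.74, 6.52 and 6.18 in controls. Aldh1b1 averaged 5.77 ± 0.52 in Jag1+/-Rfng+/- and 6.42 ± 0.42 in controls (SD, n = 5 each). It was again lowest on Jag1+/-Rfng+/- replicate 1, and the difference was -0.65 ± 0.26 (SE; limma p = 0.0256, adjusted p = 0.663; exact permutation p = 0.0556, two-sided). Without that replicate Gldc differed by -0.45, Hal by -0.55 and Aldh1b1 by -0.45, each with the same sign. On it the biliary list stood at -1.01 and the portal fibroblast list at -1.47, and with the portal fibroblast list as a covariate Gldc differed by -0.64, Hal by -0.94 and Aldh1b1 by -0.62. Of these 3, Gldc and Aldh1b1 were then no longer at an unadjusted limma p under 0.05, and Aldh1b1 was not without Jag1+/-Rfng+/- replicate 1, control replicate 1 or control replicate 3 either. Hal was not without Jag1+/-Rfng+/- replicate 4 (-0.65) or control replicate 1 (-0.67). With the hepatocyte list as a covariate Gldc differed by -0.77, Hal by -1.01 and Aldh1b1 by -0.85, each at an unadjusted limma p under 0.05.

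Pigr, the polymeric immunoglobulin receptor, which carries antibodies into bile and is also found on bile duct cells, read higher in Jag1+/-Rfng+/-. Its values were 4.90, 5.03, 5.32, 4.30 and 5.16 in Jag1+/-Rfng+/- and 4.65, 4.73, 4.67, 4.06 and 4.12 in controls, and all but Jag1+/-Rfng+/- replicate 4 lay above every control. Pigr averaged 4.94 ± 0.39 in Jag1+/-Rfng+/- and 4.45 ± 0.33 in controls (SD, n = 5 each). The difference was 0.50 ± 0.20 (SE; limma p = 0.0312, adjusted p = 0.687; exact permutation p = 0.0714, two-sided). With the portal fibroblast list as a covariate it was 0.44 and no longer at an unadjusted limma p under 0.05, nor was it without Jag1+/-Rfng+/- replicate 2, 3 or 5 or control replicate 4 or 5 (0.40 to 0.47). With the hepatocyte list as a covariate it was 0.35, also no longer at that level. Within the 7 arrays that share a sample-name number, a possible batch, Gldc differed by -0.39, Hal by -0.48, Aldh1b1 by -0.39 and Pigr by 0.46, and of these 4 Gldc alone stayed at an unadjusted limma p under 0.05.

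**Figure D5:**
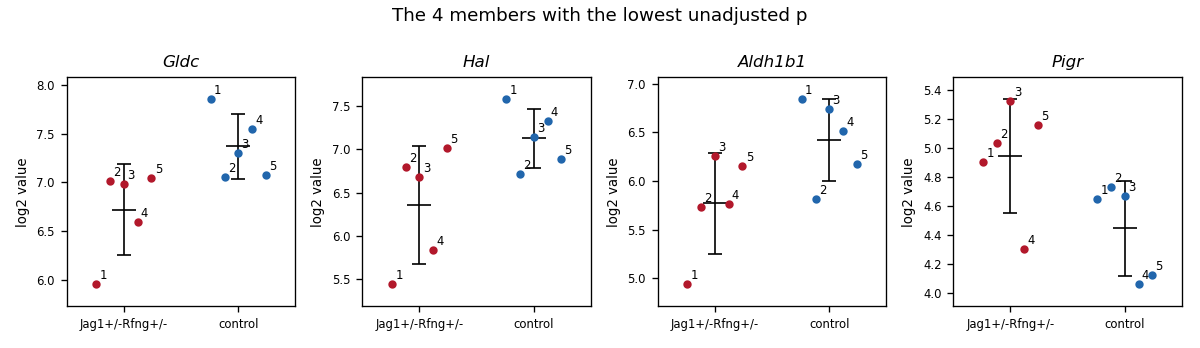
Log2 value of Gldc, Hal, Aldh1b1 and Pigr on each array, Jag1+/-Rfng+/- left in red and control right in blue, numbered by replicate, with mean and SD as a bar (n = 5 each, vertical axes differ). Replicate 1 of Jag1+/-Rfng+/- is lowest for the first 3 genes (5.96, 5.44 and 4.94), and Gldc alone has groups that do not overlap.

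None of the other amino acid enzymes reached an unadjusted limma p under 0.05 with all arrays and no covariate. Agxt, which turns glyoxylate into glycine, averaged 7.85 ± 0.45 in Jag1+/-Rfng+/- and 8.28 ± 0.28 in controls (SD, n = 5 each; difference -0.43 ± 0.21, SE; limma adjusted p = 0.743). Tdo2, which opens the ring of tryptophan, averaged 6.33 ± 0.55 in Jag1+/-Rfng+/- and 6.95 ± 0.88 in controls, with controls from 5.85 to 7.77. Its difference was -0.61 with all arrays and -0.10 within the 7 arrays of the shared sample-name number. It was -0.89 without control replicate 3 and -1.24 with the portal fibroblast list as a covariate, both at an unadjusted limma p under 0.05. Tat, tyrosine aminotransferase, averaged 8.26 ± 0.45 in Jag1+/-Rfng+/- and 8.02 ± 0.55 in controls. Of the next enzymes of tyrosine breakdown, Hpd averaged 9.17 ± 0.30 in Jag1+/-Rfng+/- and 9.12 ± 0.29 in controls, and Hgd averaged 8.86 ± 0.36 in Jag1+/-Rfng+/- and 8.96 ± 0.45 in controls. The differences of these 3 genes were 0.24, 0.04 and -0.10, all within the SD of the groups.

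Got1 and Gpt, the aspartate and alanine aminotransferases, were highest on Jag1+/-Rfng+/- replicate 5. Got1 read 8.91 on Jag1+/-Rfng+/- replicate 5 and 6.74 to 7.34 on the other 4, against 6.92 to 8.00 in controls, and averaged 7.44 ± 0.85 in Jag1+/-Rfng+/- and 7.63 ± 0.45 in controls. It differed by -0.19 with all arrays, by -0.56 without that replicate, by -0.02 without Jag1+/-Rfng+/- replicate 4 and by -0.37 without control replicate 2. With the portal fibroblast list as a covariate Got1 differed by -0.99, and with the hepatocyte list by -0.63. The values of -0.56 and -0.99 were at an unadjusted limma p under 0.05. Within the 7 arrays of the shared sample-name number the difference of Got1 was 0.09. Gpt read 5.72 on Jag1+/-Rfng+/- replicate 5 and 4.40 to 4.58 on the other 4, against 3.81 to 4.64 in controls. It averaged 4.72 ± 0.57 in Jag1+/-Rfng+/- and 4.28 ± 0.40 in controls. Gpt differed by 0.44 with that replicate and 0.19 without it.

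Prodh, which oxidizes proline, averaged 3.26 ± 0.23 in Jag1+/-Rfng+/- and 3.16 ± 0.19 in controls, close to the olfactory receptor genes, and Prodh2, which oxidizes hydroxyproline, averaged 8.52 ± 0.34 in Jag1+/-Rfng+/- and 8.64 ± 0.16 in controls. Ftcd, which passes the carbon of histidine to folate, averaged 7.66 ± 0.30 in Jag1+/-Rfng+/- and 7.57 ± 0.31 in controls (SD, n = 5 each). The 12 measured catabolic genes had a median difference of -0.11, 5 higher and 7 lower.

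The amino acid transporters listed as mainly periportal, Slc38a3 and Slc38a4, were among the steadiest members, unlike Slc1a2 (range 1.84 over the 10 arrays). Slc38a3, a glutamine transporter best known from pericentral hepatocytes in rodents, averaged 9.80 ± 0.12 in Jag1+/-Rfng+/- and 9.76 ± 0.19 in controls (SD, n = 5 each), with a range of 0.41 over the 10 arrays. Slc38a4, a transporter of neutral amino acids, averaged 10.34 ± 0.11 in Jag1+/-Rfng+/- and 10.18 ± 0.28 in controls. Hsd17b13, a lipid droplet protein, averaged 10.25 ± 0.20 in Jag1+/-Rfng+/- and 10.23 ± 0.15 in controls and differed by 0.01 ± 0.12 (SE; 95% interval -0.24 to 0.27).

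Asns, asparagine synthetase, a target of the amino acid response through Atf4, read 5.87, 5.95, 5.90, 5.88 and 6.52 in Jag1+/-Rfng+/- and 5.37, 5.75, 5.01, 5.83 and 6.09 in controls. Asns averaged 6.02 ± 0.28 in Jag1+/-Rfng+/- and 5.61 ± 0.42 in controls (SD, n = 5 each). All Jag1+/-Rfng+/- values lay above 4 of the 5 controls, and the difference was 0.41 ± 0.20 (SE; limma adjusted p = 0.743). Of 14 other genes of that response 10 lay higher and 4 lower, where 10766 of all 22180 genes lay higher. Their median was 0.18, and 0 were at an unadjusted p under 0.05 (limma). Those with the lowest p were Fgf21, a fasting hormone (0.44), Slc3a2, a subunit of amino acid transporters (0.27), and Trib3, a pseudokinase (0.31).

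The rest of these pathways gave few differences. Of 27 other genes of amino acid catabolism 0 passed the adjusted threshold and 2 lay lower at an unadjusted p under 0.05 (limma), with a median of -0.14 and 20 of 27 lower. Those 2 were Cbs, cystathionine beta-synthase (-0.42), and Kynu, kynureninase (-0.35). Of all 22180 genes 11414 lay lower, as did 6307 of the 11090 above the median level. At an unadjusted p under 0.05 (limma) 3.79% of all genes lay lower. Of 5 other periportal genes 2 lay lower at that level, Hsd17b6, a hydroxysteroid dehydrogenase (-1.41, groups not overlapping; limma adjusted p = 0.441), and Etnppl, a phospholyase (-0.84; adjusted p = 0.618), and all 5 were lower to some degree. Hsd17b6 read 8.32, 8.06, 8.30, 7.21 and 6.01 in Jag1+/-Rfng+/- and 8.69, 9.10, 9.27, 9.13 and 8.76 in controls. Of 11 other measured genes of glucose metabolism and 6 of ammonia handling 0 differed at that level, with medians of 0.00 and -0.03. Among 11 regulators Cebpb, a C/EBP factor gene of gluconeogenic and amino acid enzymes, differed by 0.41, and Onecut1, a hepatic and biliary factor gene, by -0.48 (limma adjusted p = 0.631 and 0.572). The groups did not overlap for Onecut1 and for Foxo1, a FoxO factor gene of gluconeogenesis (-0.16, apart by less than the second decimal), named here after its values were seen.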

How the data were processed

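Biotin-labelled cDNA of each sample was hybridized to a single-colour array. The authors deposited log2 values of 33649 probe sets for each array. Per the submitters' processing notes, the tools named are RMA and Partek 6.6, and their roles and settings are not given in the sources used here. Folds of dim genes are generally compressed in such values. The number of arrays limits the precision.

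Genes were named from the platform annotation (23521 probe sets with 1 symbol, 1814 with several, 8314 with none), with current symbols from the RefSeq table of GRCm38.p6 (23328 matched). The comparison was fitted in R 4.3.3 by limma 3.58.1 (lmFit and eBayes without covariate or filter, two-sided), with Benjamini-Hochberg adjustment over 22180 genes and a threshold of 0.05. The script was tested on simulated data. Exact permutation tests used all 252 splits of the arrays, and correlations 100000 permutations.

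All members are named. Values on every array are given for Glul, Oat, Cps1, Ass1, Arg1, Pck1, G6pc and Asns, for members at an unadjusted p under 0.05 or with groups apart, and, chosen after their values were seen, for Rhbg, Gulo and Lect2. From other lists up to 3 genes with the lowest p are named, Cyp2e1, Tbx3 and Foxo1 excepted. The Alb, Jag1 and Rfng values serve as checks. Members and lists were chosen with earlier results of these data known. Alternatives covered arrays left out, a replicate block, a possible batch, array weights, eBayes settings, normalization, a filter on dim genes, probe set choice and cell content covariates.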

Additional observations from a re-analysis of the deposited data

Results flagged for a closer look

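In 12 of the 70 combinations of a measured gene and a group, the highest or lowest of the 5 arrays lay apart from the other 4, by a gap of more than 0.71 of the group's whole range. For independent, normally distributed values the rule flags about 1 in 20 such combinations. The genes move together over the arrays, so the 12 flags are not separate events and are not a result about these genes. The share flagged among all genes is not given here. On Jag1+/-Rfng+/- replicate 5, which held 6 of them, Arg1 (9.46 against 7.37 to 7.59 on the other 4, gap 0.893 of the range), Cps1 (10.83 against 9.97 to 10.17, 0.770), Got1 (8.91 against 6.74 to 7.34, 0.723), Gpt (5.72 against 4.40 to 4.58, 0.869) and Asns (6.52 against 5.87 to 5.95, 0.886) were highest. On the same array Rgn was lowest (7.68 against 9.29 to 9.63, 0.823).

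On Jag1+/-Rfng+/- replicate 1, Hpd (8.63 against 9.22 to 9.38, 0.782) and Ftcd (7.13 against 7.67 to 7.88, 0.712) were lowest. Among controls, replicate 3 was lowest for Glul (9.22 against 10.58 to 10.91, 0.806). Control replicate 2 was lowest for Asl (6.92 against 7.54 to 7.72, 0.767) and Tat (7.06 against 8.04 to 8.42, 0.724). Control replicate 4 was highest for Prodh2 (8.92 against 8.52 to 8.60, 0.798).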

How the results depend on the processing

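Over 21 alternatives no member passed an adjusted p of 0.05, and the lowest adjusted p of any member lay between 0.414 and 0.823. Of 35 members 16 kept the sign of their difference in every alternative, among them Gldc, Hal, Aldh1b1 and Pigr, and 19 did not. Gldc stayed at an unadjusted p under 0.05 in 20 of 21 alternatives, Hal in 17, Aldh1b1 in 15 and Pigr in 11. The count of all genes past the adjusted threshold was 2. It was 5 with array weights, 11 with trend and robust eBayes, 11 among genes above the median level and 1 with the portal fibroblast covariate. Within the 7 arrays of the shared sample-name number it was 2. Within the 3 against 3 of them that remain without Jag1+/-Rfng+/- replicate 5 it was 0 (limma, with 1215 genes at an unadjusted p under 0.05). Leaving out 1 array gave 2 to 6, with 6 without Jag1+/-Rfng+/- replicate 2 and 5 and 4 without control replicates 4 and 5. Members higher at an unadjusted p under 0.05 numbered 1, Pigr. They numbered 2 within the 7 arrays of the shared number (Slc1a2 and Nags) and 2 with the hepatocyte covariate (Gulo and Slc1a2). In both of these Pigr was no longer among them. With the replicate block they numbered 2, Pigr among them, and with the portal fibroblast covariate 0. Leaving out 1 array gave 0 to 3, with 3 without Jag1+/-Rfng+/- replicate 1, 2 without its replicate 4 or control replicate 1, and 0 without its replicate 2 or 3. Members lower numbered 3, and 1 within the 7 arrays or the 3 against 3. They numbered 4 with the hepatocyte covariate, where Arg1 joined Gldc, Hal and Aldh1b1. With the portal fibroblast covariate they also numbered 4, namely Hal, Arg1, Tdo2 and Got1. Leaving out 1 array gave 1 to 6, with 6 without control replicate 2, 5 without Jag1+/-Rfng+/- replicate 2 or 5, and 1 without control replicate 1. The share of all genes tested at that level, in either direction, ran from 5.48% (3 against 3 arrays) to 7.65% (genes above the median level). The cause of the shifts in these counts was not tested. The median of the pericentral genes, -0.07, ranged from -0.28 without control replicate 3 to 0.41 within the 3 against 3 arrays. It was 0.17 within the 7 arrays of the shared number and 0.09 without Jag1+/-Rfng+/- replicate 5 alone. The replicate numbers did not pair the arrays: the correlations of the deviations of same-numbered arrays were -0.234 to 0.061.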
